A study of Homo sapiens with 6 samples.

Results

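The beta-globin locus on chromosome 11 holds the genes for the beta-like chains of hemoglobin and 2 noncoding neighbours. Its 7 genes HBB, HBD, HBBP1, BGLT3, HBG1, HBG2 and HBE1 were taken by symbol from gene tables of 62754 genes, and all 7 were found. They were measured in HUDEP-2 cells, human erythroid precursors immortalised from cord blood whose hemoglobin is mostly of the adult kind. Of the 6 poly(A)-selected RNA libraries, 3 came from cells given a lentiviral shRNA against MEN1 (labelled MEN1sh2, called knockdown here) and 3 from cells given a non-targeting control shRNA. MEN1 encodes menin, a subunit of the MLL1 histone methyltransferase complex, and the series concerns the part of that complex in fetal hemoglobin repression. The genotype label is MEN1 knockdown for the first group and WT for the second. All cells carried a lentivirus, grew in medium with dexamethasone, doxycycline (1 µg per ml), stem cell factor (50 ng per ml) and erythropoietin (3 units per ml), and were selected with puromycin at 2 µg per ml from 24 h to the harvest at 72 h. Only 1 hairpin against MEN1 was used in 1 cell line, so menin loss and any off-target action of the hairpin cannot be told apart. The titles call the replicates biological without saying what was repeated, so p-values measure the spread between these libraries.

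The beta-like genes lie in the order in which they are used in development: HBE1 (epsilon) in the embryo, HBG2 and HBG1 (gamma) in the fetus, HBD (delta) and HBB (beta) after birth. An upstream enhancer cluster, the locus control region, contacts 1 promoter at a time by looping, and repressors such as BCL11A and ZBTB7A keep the gamma genes low in adult cells. HBBP1 is a pseudogene and BGLT3 a long noncoding RNA gene, and both sit between the gamma and delta genes.

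Levels are in TPM, a share of all transcripts in the library that is already divided by gene length, so that genes can be compared with each other within a library. Fold changes are MEN1 shRNA minus control on the log2(TPM + 1) scale, from limma over the 14294 genes that reached 1 TPM in 3 or more libraries, and they understate the change of low genes. Depth inferred from the tables was 18400000 to 35800000 read pairs per library, and 13865 to 14361 genes had a TPM of 1 or more. MEN1 itself was at 6.54 ± 0.303 TPM after knockdown and 39.3 ± 2.10 TPM in the controls (SD, n = 3 each), a log2 fold change of -2.42 with an adjusted p of 7.8e-06. All 12 erythroid markers passed the filter on low genes, and their summed TPM was 5846 to 6442 in the controls and 8691 to 8976 after knockdown. Of 19 markers of other cells, 12 stayed below 1 TPM in every library, MS4A1, PF4 and PPBP were at 0 in all, and the summed TPM was 1106 to 1391 in the controls and 763 to 794 after knockdown, mostly TPSAB1, EPCAM and VIM. The part of either marker list in the results on the locus was not tested. In these bulk samples a change in the share of more mature cells and a change of RNA per cell cannot be told apart.

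The promoter of HBD is shown because delta-globin rose more than beta-globin in these cells, as described further on, and because it was the 1 member of 7 matched in the RefSeq promoter table (GRCh38.p14). The sequence below is the 250 bases upstream of the start, chr11:5234484-5234733 on the minus strand, 5′ to 3′, with motif matches in capitals.
HBD: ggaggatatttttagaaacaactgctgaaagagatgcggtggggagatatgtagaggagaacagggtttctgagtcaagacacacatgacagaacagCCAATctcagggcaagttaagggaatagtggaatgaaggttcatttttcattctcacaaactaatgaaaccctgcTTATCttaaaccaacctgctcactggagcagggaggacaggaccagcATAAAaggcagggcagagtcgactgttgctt
Both strands were searched for 5 short motifs, and the matches do not overlap. CCAAT, a box common in promoters, matched 1 time at -153 to -149 from the start and is found in 32.0% of 35116 promoters of this length. GATAA, the core bound by GATA-1, matched 1 time at -78 to -74, on the opposite strand (hence TTATC in the sequence above), and is found in 20.4%. ATAAA, found near many transcription starts, matched 1 time at -31 to -27 and is found in 32.7%. CACCC, the core of the box bound by KLF1 (54.7% of promoters), and TGACCA, the core bound by BCL11A (9.19%), had 0 matches in this window.

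All 7 genes of the locus were called higher after knockdown, with no overlap between the groups in any of them. Of all genes tested, 53.6% passed limma's adjusted p of 0.05, with 22.1% higher and 31.5% lower. Of the genes called, 41.2% were higher, and this part was 49.5% under median-of-ratios scaling. Higher values without overlap between the groups were found in 25.8%, and lower ones in 35.9%. The median log2 fold change of all genes tested was -0.07. HBE1 and BGLT3 entered the test only through the knockdown libraries, since they were below 1 TPM in every control, so their passing the filter already implied a difference. The plot of TPM by library shows this separation gene by gene, from the very abundant HBB to BGLT3 near the lower limit of detection.

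**Figure D1:**
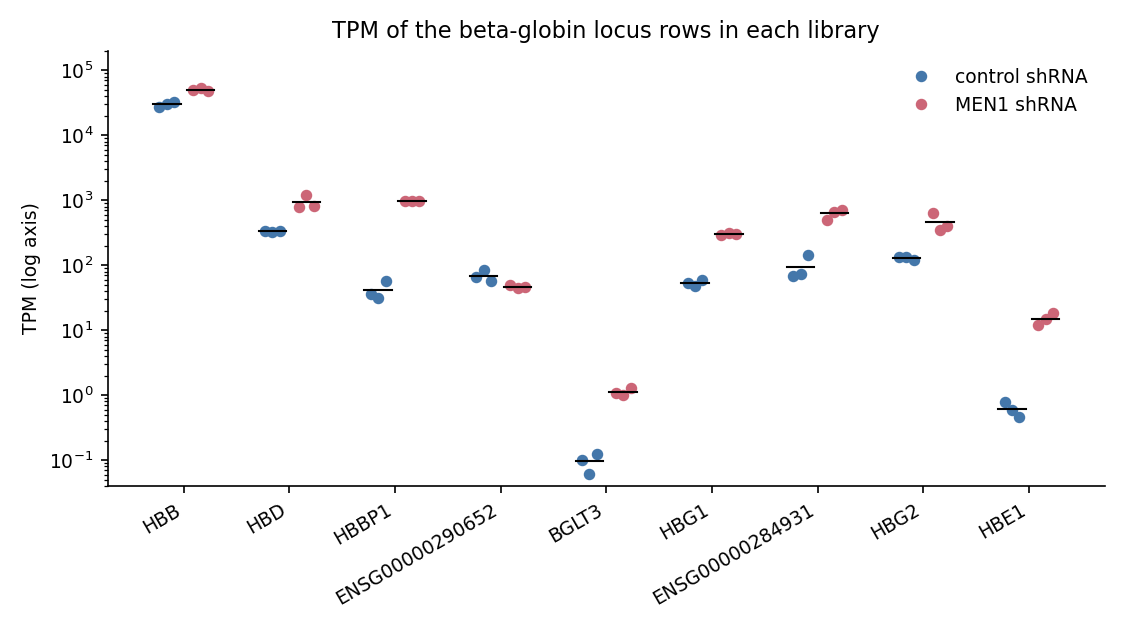
TPM (log axis) of the 7 genes and of 2 overlapping unnamed genes in each library, in map order from HBB to HBE1. Points are libraries (blue, control shRNA; red, MEN1 shRNA) and lines are group means; the red points lie above the blue ones for every named gene, and below them for ENSG00000290652 (45.1 to 49.1 against 57.3 to 84.1 TPM).

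The fetal genes come first, since the series asks about fetal hemoglobin. HBG1 (ENSG00000213934, chromosome 11, 5248269 to 5249857, minus strand), which encodes the A-gamma chain, was at 297, 319 and 305 TPM in knockdown replicates 1, 2 and 3 and at 54.1, 47.2 and 58.6 TPM in the controls. The knockdown values lay within a narrow range, with a coefficient of variation of 3.63%, and their mean was 5.75 times that of the controls. The log2 fold change was 2.51, with an SE of 0.0839 and an adjusted p of 7.8e-06.

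HBG2 (ENSG00000196565, chromosome 11, 5253188 to 5505605, minus strand), which encodes the G-gamma chain, was at 631, 351 and 403 TPM after knockdown and at 134, 133 and 119 TPM in the controls. It rose 3.58 times (log2 fold change 1.79, SE 0.195, adjusted p 0.000229) and was far more variable than HBG1 under the MEN1 shRNA, with a coefficient of variation of 32.2%, knockdown replicate 1 being the highest.

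Another entry, the unnamed gene ENSG00000284931 (chromosome 11, 5248270 to 5254783, minus strand), runs from the start of HBG2 to the end of HBG1. In GENCODE v29 its 2 transcripts have 588 and 651 exonic bases, of which 37.1% and 33.5% lie in exons of HBG1 and the other 62.9% and 66.5% in exons of HBG2, so none of its exonic sequence is its own. It was at 506, 666 and 706 TPM after knockdown and at 69.3, 72.7 and 142 TPM in the controls (log2 fold change 2.78, SE 0.268, adjusted p 0.000136). In both groups the library with the most HBG2 had the least of this entry, which held 35.3%, 49.8% and 49.9% of the gamma TPM in knockdown replicates 1, 2 and 3, and 26.9%, 28.8% and 44.3% in the controls.

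Summed over the 3 entries, gamma-globin came to 1433, 1335 and 1414 TPM after knockdown and to 258, 253 and 320 TPM in the controls (319.8 in replicate 3). Under the MEN1 shRNA this sum varied by 3.71% between libraries, against 18.1% for HBG1 and HBG2 alone; in the controls it varied by 13.5% against 3.03%. The log2 fold change was 2.34 (SE 0.0943, 95% interval 2.12 to 2.56, adjusted p 1.1e-05) for the 3 entries and 2.06 (SE 0.116, 1.78 to 2.33, adjusted p 2.5e-05) for HBG1 and HBG2. The stacked plot shows that HBG1 had nearly the same height in all knockdown libraries while the border between HBG2 and the unnamed gene moved.

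**Figure D2:**
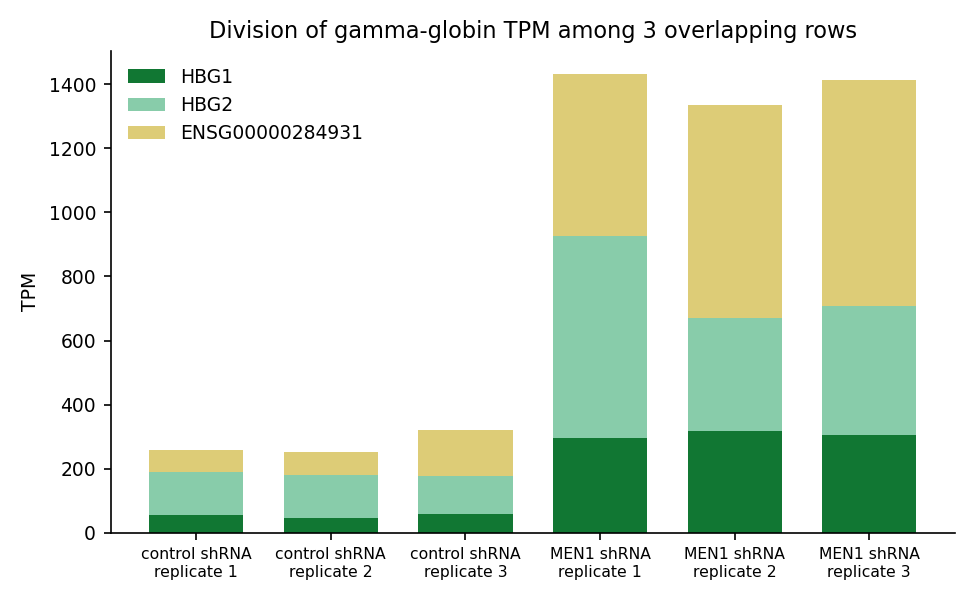
TPM of HBG1, HBG2 and ENSG00000284931 stacked for each library (bars start at 0). Bars of the knockdown libraries reach 1335 to 1433 TPM and those of the controls 253 to 320 TPM, and the part of ENSG00000284931 differs between libraries of the same group.

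The amount of sequence that these transcripts share shows how far reads could be assigned. Of the 629 windows of 151 bases, the inferred read length, in the first annotated HBG1 transcript of 779 bases, 25.9% occur unchanged in that of HBG2, and 45.6% in the shorter transcript of the unnamed gene. In GENCODE v29 this HBG1 transcript reaches to 5248079, past the deposited limit of HBG1 at 5248269. These percentages therefore hold for that transcript and not for HBG1 as deposited. Of the 464 windows in the first annotated HBG2 transcript of 614 bases, 35.1% occur in HBG1 and 67.7% in the shorter unnamed one. No window of either was found in the first annotated transcripts of HBB and HBD. HBG1 made up 32.0%, 47.6% and 43% of HBG1 plus HBG2 TPM after knockdown and 28.7%, 26.2% and 32.9% in the controls. These ranges overlapped (2-sided exact permutation p = 0.2, 0.229 adjusted over 8 shares and ratios), and the balance of A-gamma to G-gamma depends on how reads of the unnamed gene would be divided.

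The embryonic gene HBE1 (ENSG00000213931, chromosome 11, 5268345 to 5505652, minus strand) encodes epsilon-globin, which is normally made in yolk sac erythroid cells. It was at 12.0, 14.7 and 18.2 TPM after knockdown and at 0.794, 0.594 and 0.455 TPM in the controls, 24.4 times higher in mean TPM. On the log2 scale it rose by 3.29 (SE 0.170, adjusted p 2.2e-05), with 4.40 at a pseudocount of 0.1 and 1.82 at a pseudocount of 5. At 15.0 ± 3.12 TPM (SD, n = 3) HBE1 was still below each gamma gene in every library.

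Delta-globin and beta-globin are the adult chains. HBD (ENSG00000223609, chromosome 11, 5232678 to 5243657, minus strand), whose product pairs with alpha-globin in the minor adult hemoglobin, was at 779, 1209 and 817 TPM after knockdown and at 333, 322 and 339.7 TPM in the controls. The controls lay close together, and knockdown replicate 2 was the highest library. On the log2 scale it rose by 1.46 (SE 0.154, adjusted p 0.000196). One annotated transcript of HBD runs on to the HBBP1 region and shares 88 of its 806 exonic bases with HBBP1. Reads of those bases could be counted with either gene, and what part of the HBD reads they make up was not tested.

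HBB (ENSG00000244734, chromosome 11, 5225464 to 5229395, minus strand) was the most abundant transcript of the locus by far, at 50271, 53001 and 47240 TPM after knockdown and 27314, 30771 and 32627 TPM in the controls. Its rise of 1.66 times was the smallest of the 7 genes in mean TPM (log2 fold change 0.73, SE 0.0990, adjusted p 0.000606). When low genes were kept in, its adjusted p in limma was 0.0945, and under quantile normalization its log2 fold change was 0, since it ranks first in every library.

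HBBP1 (ENSG00000229988, chromosome 11, 5242120 to 5243537, minus strand), a beta-like pseudogene that is transcribed but encodes no globin, had the largest log2 fold change of the 7. It was at 986, 987 and 969 TPM after knockdown and at 36.0, 31.5 and 57.7 TPM in the controls, 23.5 times higher in mean TPM. By that ratio HBE1 rose slightly more, 24.4 times. On the log2 scale HBBP1 rose by 4.57 (SE 0.195, adjusted p 1.5e-05), the 6th highest of the 14294 genes tested. An overlapping unnamed gene, ENSG00000290652 (chromosome 11, 5241105 to 5243533, minus strand), has the span that GENCODE v29 gives to a longer transcript of HBBP1, with 1450 exonic bases against 439 in the pseudogene itself. That entry went the other way, from 67.0, 84.1 and 57.3 TPM in the controls to 49.1, 45.1 and 46.5 TPM after knockdown (a fall on the log2 scale of -0.54, SE 0.129, adjusted p 0.00936).

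HBBP1 thus made up 34.9%, 27.3% and 50.2% of the TPM of the pair in controls 1, 2 and 3 and 95.3%, 95.6% and 95.4% after knockdown. The sum of the pair, 103, 116 and 115 TPM in the controls and 1035, 1032 and 1015 TPM after knockdown, varied less between control libraries than HBBP1 alone and rose by 3.20 on the log2 scale (SE 0.0604, adjusted p 8.7e-07). The rise of the sum was below the 3.29 of HBE1, so the first place of HBBP1 holds for its own entry only. How reads were divided between these entries was not tested.

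BGLT3 (ENSG00000260629, chromosome 11, 5244554 to 5245546, minus strand) lies between HBBP1 and HBG1 and gives a long noncoding RNA known as a positive regulator of gamma-globin transcription. It was at 1.09, 1.02 and 1.28 TPM after knockdown and at 0.102, 0.0622 and 0.126 TPM in the controls. From its coverage and its length of 993 bases, these values correspond to 12.4, 12.5 and 10.9 read pairs and to 1.26, 1.00 and 1.32 read pairs. Rounded over the libraries, 36 against 4 read pairs give a ratio of 11.1 per unit of depth, with an exact 95% interval of 3.99 to 43.1 that covers counting error only. On the log2 scale it rose by 0.96 (SE 0.164, adjusted p 0.00191) and ran from 0.27 at a pseudocount of 5 to 2.65 at 0.1, so its size is not well defined at this depth.

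**Figure D3:**
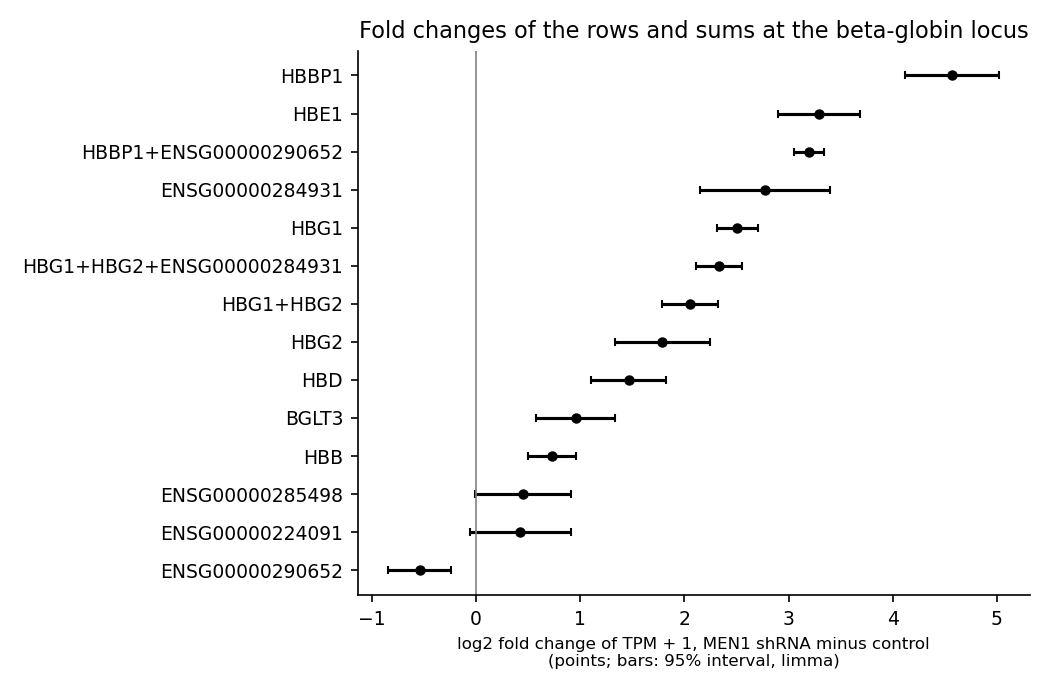
Log2 fold changes of TPM + 1, MEN1 shRNA minus control (points), with 95% intervals from limma (bars), for entries and sums at the locus. HBBP1 (4.57) and HBE1 (3.29) stand at the top and HBB (0.73) is the lowest of the 7 named genes; the intervals of ENSG00000285498 and ENSG00000224091 reach below 0, and ENSG00000290652 lies below 0 at -0.54.

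The genes did not rise in proportion. In the controls the order of TPM was HBB, HBD, HBG2, HBG1, HBBP1, HBE1 and BGLT3. The ranges of HBG1 (47.2 to 58.6 TPM) and HBBP1 (31.5 to 57.7 TPM) overlapped there, and those of the other neighbours did not. After knockdown the order by mean was HBB, HBBP1, HBD, HBG2, HBG1, HBE1 and BGLT3. HBBP1 (969 to 987 TPM) lay within the range of HBD (779 to 1209 TPM), so this pair was not ordered beyond the spread, whereas in the controls HBD was well above HBBP1. No other neighbours in this order overlapped after knockdown. Both orders leave out the overlapping unnamed genes ENSG00000284931 (506 to 706 TPM after knockdown) and ENSG00000290652. In the controls HBBP1 and ENSG00000290652 together came to 103 to 116 TPM, above HBG1. The places of HBG2, HBG1 and HBBP1 thus depend on how reads were divided among overlapping entries, which was not tested.

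Each gene was also compared with HBB within the library, by the difference of log2(TPM + 1) in the same limma fit. HBG1 plus HBG2 rose relative to HBB by 1.32 (SE 0.144, 95% interval 0.99 to 1.66, adjusted p 0.000224), from -7.36 to -6.04 in group means. HBD rose relative to HBB by 0.73 (SE 0.140, 0.41 to 1.06, adjusted p 0.00326), HBE1 by 2.56 (SE 0.212, 2.07 to 3.05, adjusted p 7.7e-05) and HBBP1 by 3.84 (SE 0.171, 3.44 to 4.23, adjusted p 1.5e-05). The gamma and HBBP1 values leave out the overlapping unnamed genes, and the sums with them were not compared with HBB. Before any comparison with HBB, HBBP1 with ENSG00000290652 rose by 3.20, against 4.57 for HBBP1 alone. Quantile normalization, which fixes HBB, gave 1.45 for HBD and 2.04 for HBG1 plus HBG2. BGLT3 gave no usable value: its ratio to HBB moved by 0.22 (adjusted p 0.34 in limma), and its sign changed with the pseudocount.

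In shares of all beta-like globin TPM (HBB, HBD, HBG1, HBG2 and HBE1), HBB took 98.3% ± 0.168 in the controls and 96.7% ± 0.143 after knockdown (SD, n = 3 each). The HBD share was 1.5%, 2.2% and 1.7% after knockdown and 1.19%, 1.03% and 1.02% in the controls, a difference of 0.708 percentage points. The HBE1 share was 0.0230%, 0.0268% and 0.0373% against 0.00285%, 0.00190% and 0.00137%. The gamma share was 1.48% ± 0.283 against 0.596% ± 0.0722, and 2.66% ± 0.234 against 0.897% ± 0.0809 with the unnamed gene counted in. The groups did not overlap in any of these 5 shares, and for each the exact permutation test (2-sided) gave its lowest possible p with 3 libraries a group, 0.1 (0.133 adjusted over 8 shares and ratios). With the unnamed gene counted in, the gamma share was thus larger than the HBD share in each MEN1 shRNA library and smaller in each control library; without it, knockdown replicate 1 alone had more gamma than delta.

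**Figure D4:**
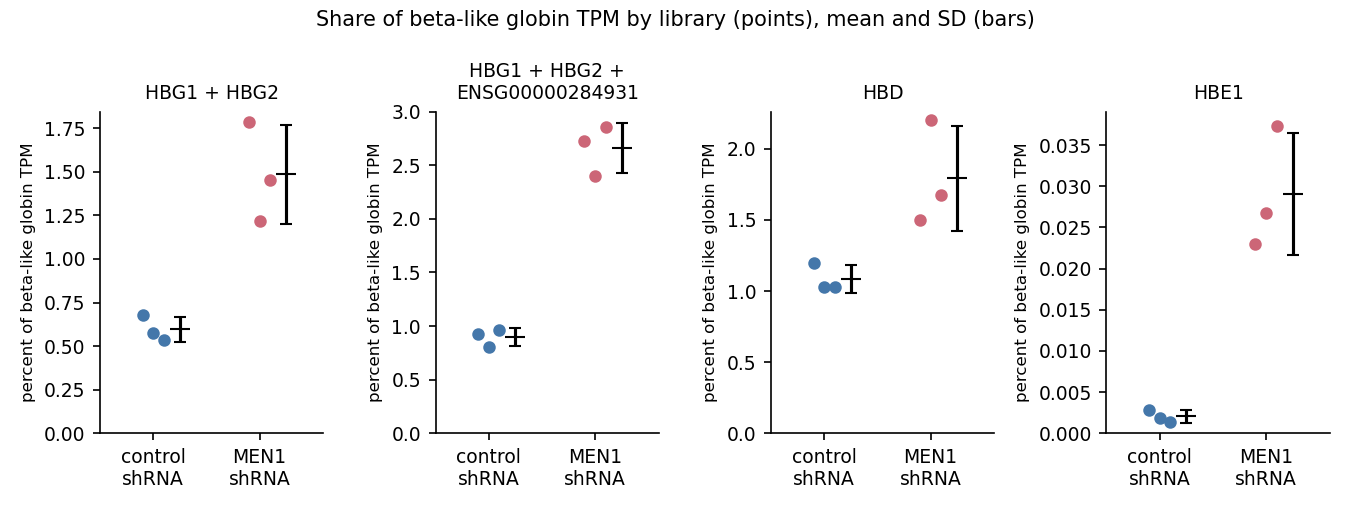
Share of beta-like globin TPM, in percent, taken by gamma-globin without and with ENSG00000284931, by HBD and by HBE1, with axes from 0. Points are libraries, and bars give the group mean and SD (n = 3); in every panel the 3 knockdown points lie above the 3 control points, from 1.22% to 1.78% against 0.537% to 0.677% in the first.

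Beta-like chains pair with alpha-like chains, so the partners were set beside them. The 5 beta-like genes took 5.20%, 5.49% and 4.88% of all TPM after knockdown and 2.78%, 3.13% and 3.31% in the controls (exact permutation p = 0.1). HBA1 and HBA2, near-identical genes for alpha-globin on chromosome 16, rose 1.93 and 1.94 times in mean TPM (adjusted p 0.000148 and 0.000751 in limma), and AHSP, the chaperone of free alpha-globin, rose 1.97 times (adjusted p 3.5e-05). HBZ, the embryonic alpha-like gene and partner of epsilon-globin, was at 14.6 ± 0.654 TPM in the controls and rose to 180.03 ± 13.5 TPM, by 3.53 on the log2 scale (adjusted p 9.6e-07). HBM (0.29 on the log2 scale, adjusted p 0.483 in limma) and HBQ1 (0.14, adjusted p 0.355) were not called. The ratio of alpha-like to beta-like TPM was 0.932, 0.903 and 0.889 after knockdown and 0.983, 0.672 and 0.743 in the controls, so that the groups overlapped, control replicate 1 being the highest library (2-sided exact permutation p = 0.4).

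The wider pathway was read from gene lists taken as whole lists, which were chosen with earlier results of these data known. Their counts are therefore descriptive only. They stand beside 22.1% higher, 31.5% lower and 53.6% called in all over the 14294 genes tested. Of 14 heme synthesis genes, whose product fills each globin chain, 12 were higher, 0 were lower and 2 did not pass the threshold, with a median log2 fold change of 0.83. UROD rose from 452 ± 11.8 to 984 ± 22.6 TPM and UROS from 117 ± 3.57 to 233 ± 10.6 TPM, both enzymes of porphyrin assembly. Of 22 factors of the locus control region and of chromatin looping, 9 were higher, 3 lower and 10 did not pass. The median was 0.13, and the share called was near that of all genes. The share higher was above 22.1% and the share lower below 31.5%, which was not tested. LDB1, the bridging protein that links enhancer and promoter complexes, was at 285 ± 11.3 TPM in the controls and lower after knockdown, at 159 ± 17.3 TPM (-0.84 on the log2 scale, adjusted p 0.000145), while TAL1, an erythroid transcription factor in the same complex, rose from 93.7 ± 1.38 to 158 ± 12.6 TPM (0.74, adjusted p 0.000115), as did the small MAF gene MAFG (0.96) and the cohesin subunit gene RAD21 (0.39).

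Of 33 fetal globin repressor genes, 32 were tested, 11 were higher, 12 were lower and 9 did not pass, with a median of -0.10. The shares higher and called were above the 22.1% and 53.6% of all genes, and the share lower was near 31.5%. These differences were not tested. MYB, a progenitor transcription factor, fell by 1.23 and RCOR1, a corepressor partner of LSD1, fell by 0.66 on the log2 scale, while EIF2AK1, the heme-regulated kinase, rose by 0.78 and SOX6, a BCL11A partner, rose by 1.65, from 3.54 ± 1.11 TPM in the controls. BCL11A, named here with its value known, was at 19.4 ± 1.97 TPM in the controls and 3.04 ± 2.12 TPM after knockdown. ZBTB7A, the other repressor named at the opening and also given with its value known, went the other way. Its level was 44.6 ± 2.53 TPM in the controls and 57.5 ± 7.40 TPM after knockdown (0.36 on the log2 scale, adjusted p 0.0178 in limma). Of 18 fetal globin activators and fetal-stage genes, 17 were tested, 7 were higher, 3 lower and 7 did not pass. The median was 0.16, and the share called was near the 53.6% of all genes. The share higher was above 22.1% and the share lower below 31.5%, which was not tested either. IGF2BP2 fell by 2.25, and KLF10 (0.83), KLF4 (1.46) and ATF4 (0.495) rose. KLF4 was at 1.82 to 2.48 TPM after knockdown and 0.0544 to 0.202 TPM in the controls. It entered the test only through the knockdown libraries, so its passing the filter already implied a difference.

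Of the 12 erythroid markers 8 were higher and 0 lower, against 22.1% and 31.5% of all genes, among them SLC4A1 (log2 fold change 1.93), the anion exchanger of the red cell membrane, GYPC (0.81), a glycophorin gene, and ALAS2 (1.03). Of 6 tested markers of other cells 5 were lower, among them EPCAM (-0.86), VIM (-0.79), ITGA2B (-0.83) and LYZ (-1.05). LYZ was at 1.27 to 1.67 TPM in the controls and 0.151 to 0.268 TPM after knockdown. It entered the test only through the controls, so its passing the filter already implied a difference. The part of these markers in the rise of the locus was not tested.

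Genes with the most similar profiles were found by the root mean square distance of log2(TPM + 1), centred on the mean over the 6 libraries. In a design of 2 groups this mostly matches the size of the group difference. FAM234B was nearest to HBB (distance 0.036), followed by UBL4A (0.053) and SNX8 (0.053). SPINT1 (0.083) and DHRS9 (0.10) were nearest to HBD. TULP3 (0.13), FMOD (0.16) and CELA2B (0.17) were nearest to HBG1 plus HBG2. For HBE1 they were CCL4L2 (0.14), APOE (0.15) and HBZP1 (0.16), the pseudogene beside HBZ, which was at 74.7 ± 6.82 TPM after knockdown and 6.93 ± 0.177 TPM in the controls. HBBP1 had no close neighbour: CRYM (0.27), CTSE (0.37) and ACSL6 (0.46) were the nearest. Control means were under 1 TPM for DHRS9 (0), FMOD (0.210), CELA2B (0.752), CCL4L2 (0.152) and ACSL6 (0.922). DHRS9, FMOD and CCL4L2 entered the test only through the knockdown libraries. For such low genes the added 1 shrinks the fold change, so a small distance does not mean a like fold change in TPM.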

How the data were processed

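RNA of 6 HUDEP-2 libraries, 3 per group by the sample titles, was analysed. Per the submitters' processing notes the tools were FastQC, Trimmomatic, STAR 2.7.1a, Picard 2.20.4 and StringTie 2.0.4 on hg38; for the annotation and the strand setting, the sources used here name nothing. The deposited tables give TPM, FPKM and coverage for each gene. The deposited TPM values are shares of the library per unit of length, the deposited FPKM values are scaled by length and by fragments, and the deposited coverage, a signal not scaled for depth, is the mean per exonic base, per the file headers. In control replicate 2, 2 genes had negative residues near 0 that were set to 0. Depth was inferred from the commonest ratio of coverage to FPKM and a step of 302 bases, a pair of 151-base reads, in low genes. That ratio was shared by 19.1% to 21.2% of the genes at 1 TPM or more in each library. No read counts were recovered for genes with several transcripts, so no count model was fitted. Deposited positions overlapped GENCODE v29 (GRCh38) for 99.9% of shared identifiers, and 70.3% had the same start and end.

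The 14294 genes that reached 1 TPM in 3 or more libraries were tested on log2(TPM + 1) with limma 3.58.1 in R 4.3.3 (trended eBayes, 2-sided, Benjamini-Hochberg over all features, threshold 0.05). Sums and log2 ratios to HBB were added to that fit, a ratio taking the trend at its gene's mean. Shares were compared by exact permutation (SciPy 1.17.1). The fit was first tested on simulated data. It called 80% of genes given a true log2 fold change of 1 and 96% of those given 2. Of the unchanged genes it called 0.128%. A gene that did not pass may therefore still have changed. Named genes were the 7 members, entries overlapping chromosome 11 from 5200000 to 5300000, MEN1, the alpha-like globins with AHSP, up to 4 called genes of lowest adjusted p per list and the 3 most similar genes per member; some genes under this rule are not reported here. Members and lists were chosen with earlier results of these data known. Alternatives were FPKM, pseudocounts of 0.1 and 5, no filter or a mean TPM of 5, 3 scalings, no trend, array weights, a replicate block (for shares, a sign-flip test added after the data were seen) and leaving out each library.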

Additional observations from a re-analysis of the deposited data

How the results depend on the processing

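Over the alternatives tried, the main results gave 335 values, and 329 of them counted as unchanged. For the limma fits, unchanged meant the same direction and the same side of the threshold. For counts of genes past the threshold it meant only a similar size. The shares and ratios could not change side, since their exact permutation p was never below 0.1, so for them it meant the same direction. HBB did not pass when low genes were kept in (0.73, adjusted p 0.0945 in limma) or under quantile normalization (0, by construction). The ratio of BGLT3 to HBB was -0.22 with FPKM, 1.92 at a pseudocount of 0.1, -0.47 at a pseudocount of 5 and 0.92 under quantile normalization, where HBB is fixed and the value is that of BGLT3 alone. Among single named genes, HBM ran from -0.052 (without control replicate 3) to 0.65 (without control replicate 1) and was not called, and ENSG00000285498 passed with array weights (0.55) and without knockdown replicate 1 (0.60); the cause was not tested. Counts of genes past the threshold were 6344 to 8031 against 7661. The part of them that was higher went from 41.2% to 49.5% under median-of-ratios scaling and 48.9% under quantile normalization, so the excess of lower calls depended on the scaling, and no scaling shifted the genes' median by more than 0.078.

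With 1 library left out, HBG1 plus HBG2 ran from 1.91 to 2.15, the sum with the unnamed gene from 2.27 to 2.44, HBD from 1.26 to 1.58 and HBBP1 from 4.40 to 4.82. Libraries with the same replicate number did not deviate together (correlations 0.017, -0.027 and -0.012), and not every library correlated best with its own number. Blocking on the replicate number left 7013 genes past the threshold, 6871 of them among the 7661, and HBG1 plus HBG2 kept its log2 fold change of 2.06; the block changed no call on the locus. For the shares and ratios, an exact sign-flip test of the 3 paired differences, chosen after seeing the data, gave the same differences (0.888 percentage points for gamma) with p = 0.25, the smallest that 3 pairs allow, except for the alpha-like to beta-like ratio (p = 0.5). No value at a mean TPM of 5 or more could be given for BGLT3 alone.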

Other observations

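Other entries at the locus were low. Of those overlapping chromosome 11 from 5200000 to 5300000, ENSG00000285498, just downstream of HBB, was at 1.61 ± 0.451 TPM after knockdown and 0.900 ± 0.284 TPM in the controls (adjusted p 0.0917 in limma). ENSG00000224091, on the plus strand, was at 1.38 ± 0.367 and 0.782 ± 0.333 TPM (adjusted p 0.124). ENSG00000239920, whose annotated span covers HBE1 and the start of HBG2, was below the filter at 0.351, 0.126 and 0.358 TPM after knockdown and 0.0624, 0.0306 and 0.0741 TPM in the controls.

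The genes flanking the locus, mostly olfactory receptors that erythroid cells hardly transcribe, were below 1 TPM in every library, and 12 of 21 were listed at 0 in all. Their summed TPM was 0.401 to 1.23 after knockdown and 0 to 0.0649 in the controls. OR51B5, whose exons share up to 84 bases with the long transcripts of HBE1, was at 0.0640, 0.0578 and 0.133 TPM after knockdown and listed at 0 in the controls. UBQLNL was at 0.113, 0.244 and 0.391 TPM against 0.0480, 0.0535 and 0 TPM. No test was made at these levels.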
